A study of Homo sapiens with 54 samples.

Results

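Dopamine was given to hMSN-like cells (modelled on the medium spiny neurons of the striatum and grown from H9, also WA09, a line of human embryonic stem cells) at 1 mM in ascorbic acid, for 1 h a day over 5 days, and RNA was collected once the last dose was 1 h or 24 h past. These are the groups Chronic 1 h and Chronic 24 h, with 3 libraries each, or 6 of the 54 samples of the series. They were chosen by their treatment labels and not by any measured value. The comparison asks which transcripts were raised shortly after the fifth dose relative to a day later. The 3 PBS libraries of the 1 mM experiment (the same line and differentiation protocol, no dopamine) are given as a reference level, without a test, as their labels state no time of collection. Those labels name PBS and no ascorbic acid, so dopamine and its vehicle cannot be told apart where PBS levels are given. Chronic cultures at 1 µM and acute cultures (1 dose of 1 mM), each with 3 libraries at 1 h and 3 at 24 h, served only for tests of whether the change differed.

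Several features limit these groups as a model. All cultures came from 1 cell line, and the medium was replaced with fresh maturation medium holding BDNF and GDNF between incubations. No vehicle cultures of both times were used here, so the time since dopamine and the time since the medium was handled cannot be told apart. In bulk RNA, a change in the share of a cell type and a change in RNA per cell cannot be told apart either. Where a p-value is given, it measures the spread between 3 cultures of a group.

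Immediate early genes are those a cell can transcribe within minutes of a stimulus without making new protein first. In striatal neurons, dopamine acting on D1-type receptors raises cyclic AMP, and calcium entry and growth factors raise ERK kinase activity, and both routes end on transcription factors bound at the start of genes such as *FOS* and *EGR1*. The proteins made then include transcription factors for later genes, phosphatases that switch ERK off, and RNA-binding proteins that destroy the same short-lived messages.

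The 6 libraries were of like depth. Between 20792763 and 21473289 reads fell on genes at 1 h (median 20941623) and between 20798969 and 21700120 at 24 h (median 20839400). Intron reads made up 20.6% to 20.9% of them at 1 h and 18.9% to 22.4% at 24 h, and mitochondrial ribosomal RNA 0.805% to 0.844% and 0.675% to 0.733%, where the groups did not overlap and any part of this in the results was not tested. Pan-neuronal markers were high, with *MAP2* at 472 and 503 mean TPM (transcript abundance from exon reads per exon length, scaled to a fixed total in each library). Markers of progenitors were high as well, with *SOX2* at 499 and 511 TPM. Summed TPM of 24 striatal medium spiny neuron markers was 254 to 275 at 1 h and 251 to 281 at 24 h. Against the label, markers of excitatory neurons were higher than those of the striatum, at 1506 to 1813 and 1610 to 2130 over 8 genes, and *SLC17A7*, which loads glutamate into vesicles, was at 65.1 and 74.8 TPM beside 28.2 and 29.6 for *GAD1*, which makes GABA. Summed TPM at 1 h and 24 h was 138 to 184 and 167 to 238 for interneuron markers, of which *NKX2-1* was at 0.159 and 0.341 TPM, 142 to 198 and 132 to 174 for mesenchymal and vascular markers, of which *PECAM1* was at 0.151 and 0.173 TPM, and 485 to 511 and 461 to 574 for pluripotency markers, of which *POU5F1* was at 0.490 and 0.292 TPM. The members named for these lists were low, so other members made up the sums. The pluripotency sum was nearly all *SOX2*, given above among the progenitor markers. The name hMSN-like is kept as the study gives it.

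One hour after the fifth dose, 123 genes were higher than at 24 h and 3 were lower. A DEG here had an adjusted p-value under 0.05 (edgeR's quasi-likelihood test on total gene reads, Benjamini-Hochberg adjustment over 25081 genes tested), a log2(fold change) of 1 or more in either direction, and 1 TPM or more as the mean of the higher group. The 126 DEGs were 0.502% of the genes tested, 0.490% higher and 0.0120% lower at 1 h. With no minimum fold change, 313 genes were higher (1.25%) and 32 lower (0.128%), in all 1.38% of those tested, and the median log2(fold change) of all genes was -0.01. TPM of both groups did not overlap for 125 of the 126 DEGs, where 22.6% of the 16917 genes at a mean of 1 TPM or more did not overlap (13.4% higher and 9.18% lower at 1 h). The DEGs were chosen from the same libraries, so this is largely built in and is no separate support. Of the higher DEGs, 24 changed at least 4-fold and 10 at least 8-fold. Counting exon reads alone gave 111 DEGs, or 0.650% of 17079 genes (107 higher, 0.627%, and 4 lower, 0.0234%), while 1.84% passed the adjusted p alone, and 96 DEGs were called by both counts. The count depended on the libraries and on the fit, with 80, 65 and 64 DEGs without Chronic 1 h replicate 1, 2 or 3, 66 without Chronic 24 h replicate 1, 199 without Chronic 24 h replicate 3, and 38 when all 15 libraries of the 1 mM experiment were fitted together. Those 15 include replicate 1 of Acute 24 h, which stood apart from its group, and its part in the lower count was not tested.

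**Figure D1:**
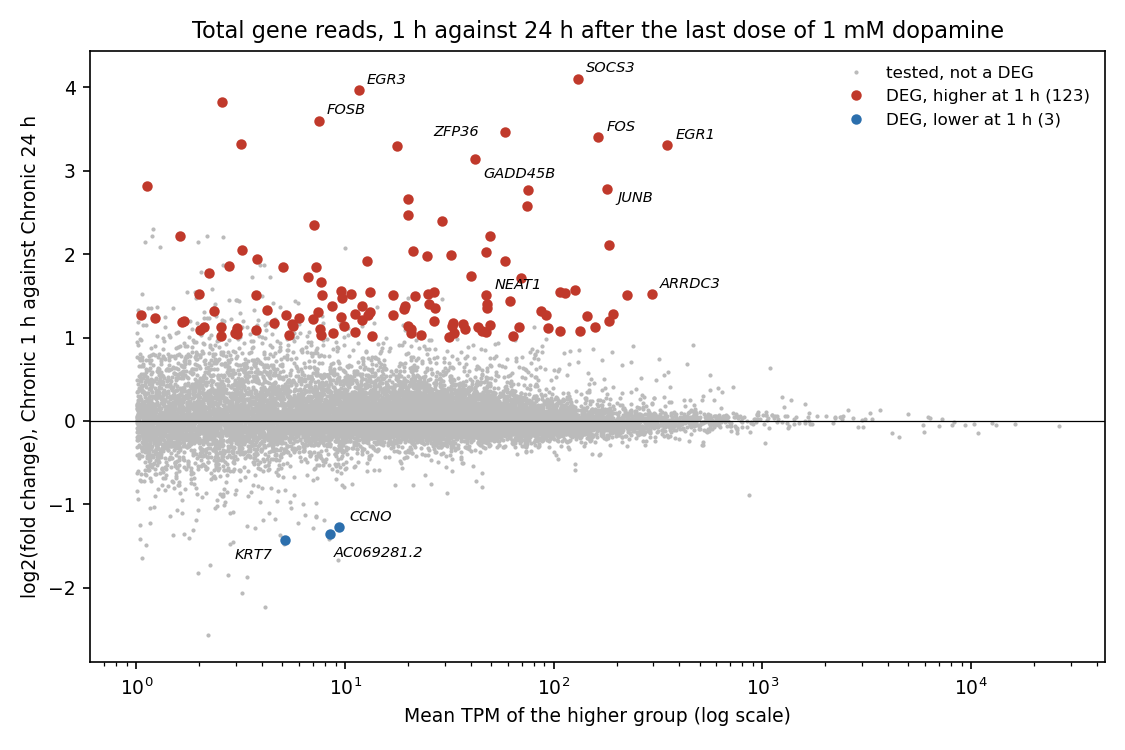
Each point is a gene with a mean TPM of at least 1 in the higher group (x axis, log scale), against its log2(fold change) in total gene reads at Chronic 1 h relative to Chronic 24 h (y axis). The 123 DEGs that were higher at 1 h (red) reach a log2(fold change) of 4.10 for *SOCS3*, while the 3 lower DEGs (blue) lie between -1.43 and -1.27.

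At 24 h the group mean lay within the range of the PBS libraries for 60 of the 123 higher DEGs, above it for 35 and below it for 28. The shares over all genes were not worked out, and the DEGs were chosen partly by their 24 h level. These counts therefore cannot be read as a return to the PBS level or a departure from it. By annotation, 98 of the 126 DEGs were protein coding and 25 were long non-coding RNAs. The shares of these classes over all genes tested were not worked out, so the counts do not show whether either class was favored.

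Of 23 transcription factor genes of the immediate early class, 13 rose, 10 did not pass and none fell, and the median log2(fold change) was 0.95 (all genes, -0.01). The count was 8 without Chronic 1 h replicate 2, 15 without Chronic 24 h replicate 3, 13 by exon reads and 4 with 15 libraries in 1 fit. In that fit of the 1 mM experiment, which holds replicate 1 of Acute 24 h, the counts given below fell as well. They were 2 for mRNA stability, activity, cyclic AMP and inflammatory genes, 1 for SRF targets, and 0 for KLF and IER genes, ERK feedback, GADD45 and p53 targets and metallothioneins. The EGR and FOS families held the greatest changes.

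*FOS*, which forms the AP-1 factor with JUN proteins, was at 157, 164 and 168 TPM in the Chronic 1 h libraries and at 15.9, 16.2 and 13.5 TPM in the Chronic 24 h libraries. The PBS libraries were at 16.7, 12.6 and 19.1 TPM, so the groups did not overlap at 1 h, and those at 24 h lay within the PBS range. The log2(fold change) of *FOS* was 3.40 ± 0.08 (SE, n = 3 per group, adjusted p = 5.32e-07 by edgeR). *FOSB*, whose truncated product accumulates in the striatum under repeated drug exposure, was at 8.20, 8.53 and 5.68 TPM at 1 h and at 0.572, 0.800 and 0.493 TPM at 24 h. Its log2(fold change) was 3.60 ± 0.25 (SE, n = 3, adjusted p = 3.01e-04 by edgeR).

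*EGR1*, a zinc finger factor much used as a mark of neuronal activity, was at 332, 370.5 and 344 TPM at 1 h, and at 41.6, 42.1 and 22.8 TPM at 24 h. All 3 libraries at 24 h were above the PBS libraries, which were at 19.2, 13.9 and 17.8 TPM. The log2(fold change) between 1 h and 24 h was 3.30 ± 0.18 (SE, n = 3, adjusted p = 9.80e-05 by edgeR). *EGR3* was at 12.8, 13.2 and 8.87 TPM at 1 h and at 0.825, 0.311 and 0.989 TPM at 24 h, a log2(fold change) of 3.96 ± 0.33 (adjusted p = 8.14e-04). *EGR2*, the factor known for its part in myelination, was between 17.7 and 21.3 TPM in the 3 libraries at 1 h and at 0.596, 0.637 and 0.607 TPM at 24 h. For this gene the count chosen matters, as its log2(fold change) was 2.66 ± 0.13 in total gene reads (adjusted p = 6.65e-05) and 5.00 in exon reads (adjusted p = 3.74e-06). *EGR4* had 19, 26 and 30 reads at 1 h and 3, 2 and 0 at 24 h, too few for a fold change to be given. The forkhead factor *FOXQ1*, another of the DEGs with the greatest changes, likewise had 33, 37 and 33 reads at 1 h and 1, 1 and 8 at 24 h.

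*JUNB* was at 184, 191 and 166 TPM at 1 h and at 29.4, 28.8 and 21.5 TPM at 24 h (log2(fold change) 2.78 ± 0.11, adjusted p = 1.83e-05 by edgeR). *JUN* was at 432 ± 9.32 TPM (SD, n = 3) at 1 h and 273 ± 75.8 at 24 h, with a log2(fold change) of 0.68 that did not pass (adjusted p = 0.0700). *ATF3*, a stress-inducible factor, rose by 1.44 ± 0.09 on the log2 scale, from 22.0 ± 0.995 TPM to 61.7 ± 4.97. *SRF*, the serum response factor, rose by 0.84 ± 0.13, with 80.4, 86.0 and 81.9 TPM at 1 h and 47.7, 40.6 and 56.5 TPM at 24 h.

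The NR4A orphan receptors and *NPAS4*, which belong to the same class, gave other values, and are named here after these were seen. *NR4A1* was at 19.4 ± 4.11 TPM (SD, n = 3) at 1 h and 14.8 ± 4.32 TPM at 24 h, and the groups overlapped (log2(fold change) 0.45, adjusted p = 0.324). *NR4A2*, which dopamine neurons need, was lower at 1 h, at 15.6, 14.3 and 17.7 TPM against 22.4, 24.7 and 18.5 TPM (log2(fold change) -0.42, adjusted p = 0.219). *NR4A3* was at 37.2, 31.3 and 29.2 TPM at 1 h and at 31.7, 23.5 and 26.4 TPM at 24 h, and all 6 values were above the PBS libraries at 20.2, 18.7 and 22.8 TPM. *NPAS4*, which responds to calcium entry in neurons, was at 3.62, 3.94 and 3.88 TPM at 1 h and at 2.56, 1.14 and 4.65 TPM at 24 h, and the groups overlapped as well (log2(fold change) 0.49, adjusted p = 0.626).

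**Figure D2:**
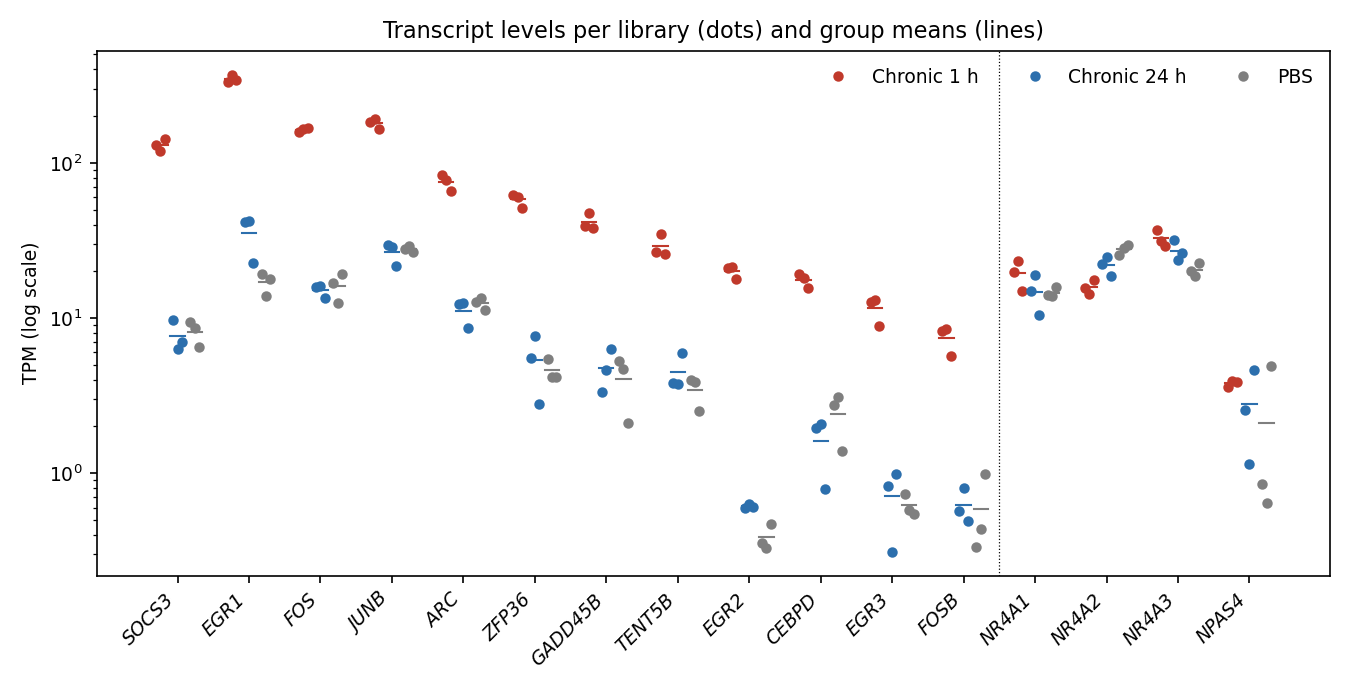
TPM (y axis, log scale) in each library of Chronic 1 h (red), Chronic 24 h (blue) and PBS (grey) for 12 immediate early and feedback genes and, right of the dotted line, 4 genes of the same class that did not pass. Dots are libraries and lines are group means. For the 12 genes on the left every red dot is above every blue and grey dot, while on the right the groups lie close together.

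Binding sites known from these promoters are shown for the pair of genes that marks the response. RefSeq holds a promoter window (250 bases before to 50 after the start site, GRCh38.p14) for 84 of the 123 higher DEGs. The 250 bases before the start site of *EGR1*, chr5:138465229-138465478 on the plus strand, and of *FOS*, chr14:75278578-75278827 on the plus strand, are printed with the CArG box (the site bound by SRF) and with TGACG or its reverse complement CGTCA (the core of the site bound by CREB) in capitals.
EGR1: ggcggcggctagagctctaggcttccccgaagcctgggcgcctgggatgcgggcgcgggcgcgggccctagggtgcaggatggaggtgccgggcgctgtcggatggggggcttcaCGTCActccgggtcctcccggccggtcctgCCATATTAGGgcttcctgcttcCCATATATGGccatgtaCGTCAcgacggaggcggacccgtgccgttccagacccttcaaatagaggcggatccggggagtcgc
FOS: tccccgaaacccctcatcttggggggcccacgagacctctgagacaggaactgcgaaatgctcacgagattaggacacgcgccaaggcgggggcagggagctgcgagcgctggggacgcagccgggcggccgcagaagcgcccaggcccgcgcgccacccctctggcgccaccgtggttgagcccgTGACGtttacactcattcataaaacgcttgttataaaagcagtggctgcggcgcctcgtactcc
The *EGR1* window holds 2 CArG boxes, which begin 105 and 83 bases before the start site, and 2 matches of TGACG. The *FOS* window holds 1 match of TGACG, 64 bases before the start site, and no CArG box within these letters. Over both strands, 4 of the 84 windows hold a CArG box (4.76%, *EGR1*, *FHL2*, *FILIP1L* and *RPE65*), against 1.29% of all 27305 windows. TGACG was in 26 of them (31.0%, against 25.0% of all), and its full palindrome TGACGTCA in 2 (2.38%, against 1.98%). The AP-1 site TGANTCA was in 5 (5.95%, against 7.76%). A match is a description of the sequence and shows no binding.

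Krüppel-like factors and the small immediate early response genes both regulate growth. Of 13 genes tested, 8 rose, 5 did not pass and none fell, with a median log2(fold change) of 0.65, and 3 did so without Chronic 1 h replicate 1. *IER2* was at 191, 209 and 178 TPM at 1 h and 70.6, 89.0 and 59.9 TPM at 24 h (log2(fold change) 1.28 ± 0.11, adjusted p = 8.71e-04 by edgeR). *KLF4* was at 8.62 ± 1.68 TPM (SD, n = 3) and 3.25 ± 0.410 TPM. *KLF6*, also named after its value was seen, had a log2(fold change) of 0.44 that did not pass (adjusted p = 0.151).

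Feedback inhibitors of ERK signaling limit the kinase cascade that induces them. Of 16 genes tested, 6 rose, 10 did not pass and none fell, with a median log2(fold change) of 0.32, and 3 rose without Chronic 1 h replicate 3. *DUSP5*, a nuclear phosphatase of ERK, was at 72.0, 75.0 and 57.4 TPM at 1 h and 35.0, 34.6 and 27.2 TPM at 24 h (log2(fold change) 1.12 ± 0.12, adjusted p = 0.00341). *ERRFI1*, an inhibitor of the EGF receptor, rose by 1.02 ± 0.09 and *DUSP1* by 0.82 ± 0.07 on the log2 scale. *DUSP14* was at 35.1, 41.7 and 37.6 TPM at 1 h and 28.1, 23.1 and 38.6 TPM at 24 h, where the groups overlapped, a log2(fold change) of 0.34 with an adjusted p of 0.388.

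Regulators of mRNA stability held a pair of the larger changes. *ZFP36* (tristetraprolin) binds AU-rich elements and brings short-lived messages to decay. It was at 62.3, 60.5 and 51.5 TPM at 1 h and 5.56, 7.67 and 2.77 TPM at 24 h, a log2(fold change) of 3.47 ± 0.26 (adjusted p = 4.20e-04 by edgeR). *TENT5B*, a poly(A) polymerase of the TENT5 family, was at 26.5, 34.5 and 25.9 TPM at 1 h and 3.79, 3.73 and 5.96 TPM at 24 h, a log2(fold change) of 2.40 ± 0.17 (adjusted p = 3.72e-04). In both genes the groups were far apart relative to their spread. Of the 10 genes of this list, 5 rose and none fell (median 0.54), the others being *BTG2*, *TOB1* and *ZFP36L1*. The count was 3 without Chronic 1 h replicate 1 and 8 without Chronic 24 h replicate 3.

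Genes that neurons induce with activity, and that act at the synapse or outside the cell, rose in part. Of 26 tested, 11 rose and none fell (median log2(fold change) 0.48), or 5 without Chronic 1 h replicate 1. *ARC*, whose product removes AMPA receptors from the synapse, was at 83.1, 77.4 and 65.4 TPM at 1 h and 12.2, 12.6 and 8.65 TPM at 24 h, where PBS libraries were at 12.7, 13.4 and 11.2 TPM. Its log2(fold change) was 2.77 ± 0.15 (adjusted p = 8.00e-05 by edgeR). *NPTX2*, a secreted pentraxin that gathers AMPA receptors, was at 25.1 ± 1.20 and 12.8 ± 1.76 TPM (SD, n = 3), with 17.9 ± 0.683 in PBS. *BDNF* (3.31 and 3.65 TPM, log2(fold change) 0.01), *VGF* (179 and 168 TPM, 0.11) and *HOMER1* (27.8 and 30.8 TPM, -0.14) did not pass. Of 17 genes under cyclic AMP and CREB, 3 rose, namely *SIK1B* and *SIK1*, near-identical copies whose reads the counting may divide between them, and the clock gene *PER2* (log2(fold change) 1.05 ± 0.09, adjusted p = 8.14e-04). The median of those 17 was 0.02.

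Stress genes of the GADD45 family rose in all 3 members. *GADD45B*, which takes part in DNA demethylation at activity-induced genes, was at 39.4, 47.8 and 38.3 TPM at 1 h and 3.32, 4.65 and 6.30 TPM at 24 h (log2(fold change) 3.14 ± 0.22, adjusted p = 3.14e-04 by edgeR). *GADD45G* was at 224 ± 25.2 and 76.3 ± 25.0 TPM, and *GADD45A* at 190.2 ± 17.2 and 108 ± 10.1 TPM (SD, n = 3). The call of *GADD45G* was lost without any 1 of the Chronic 1 h libraries and without Chronic 24 h replicate 1. Over the list of 12 GADD45 and p53 target genes, 5 rose and none fell (median 0.26), or 3 without Chronic 1 h replicate 1, the other 2 being *BTG2* and *PLK3*, and *CDKN1A* and *MDM2* were not among them.

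**Figure D3:**
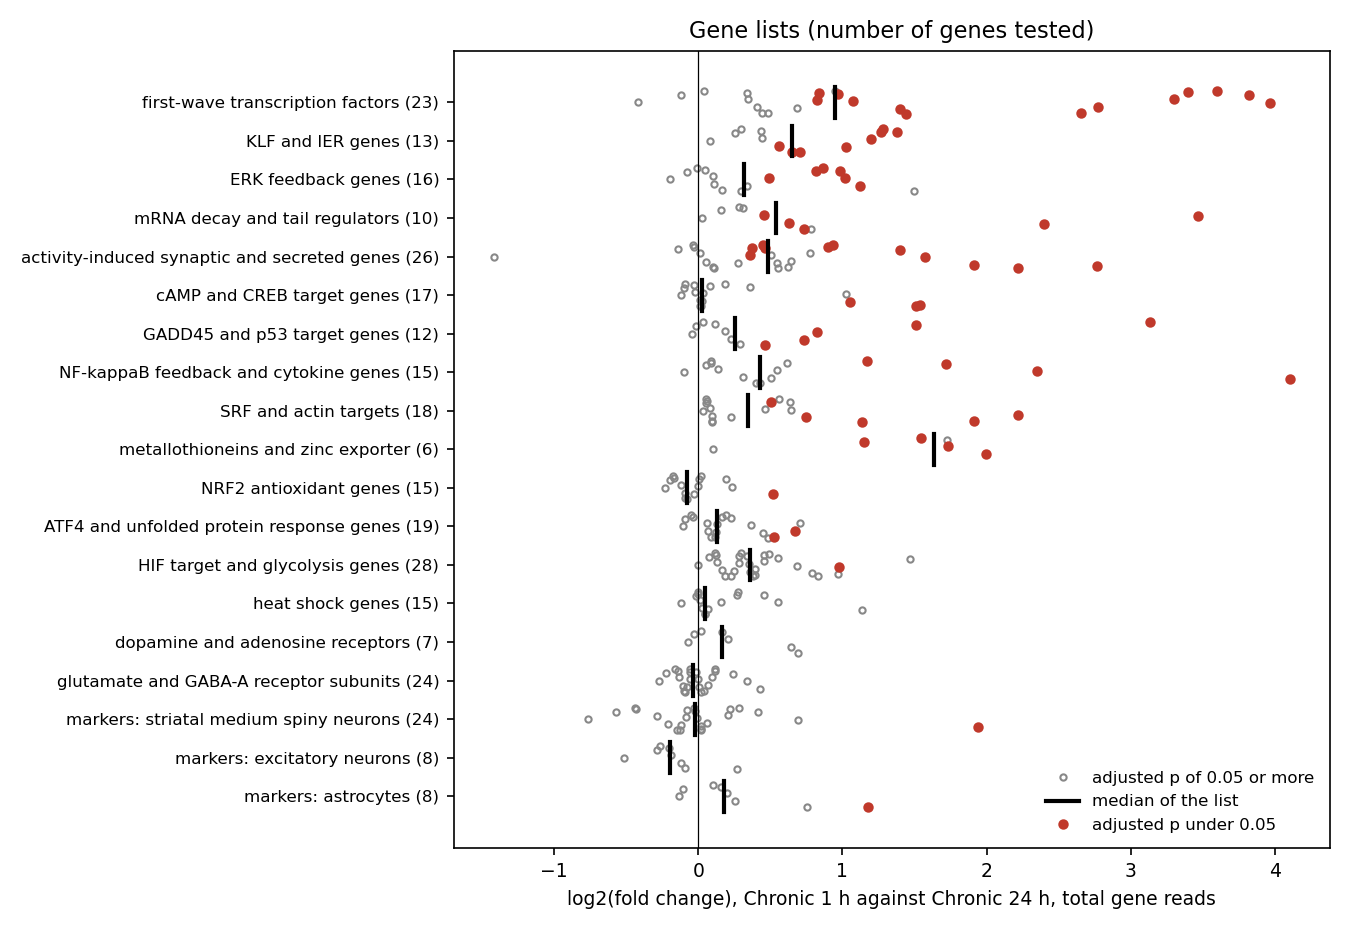
Each dot is a gene of a hand-written list (rows, number of genes tested in brackets), placed by its log2(fold change) in total gene reads at Chronic 1 h against Chronic 24 h (x axis). Filled dots passed an adjusted p of 0.05 and the black line is the median of the list. The lists of immediate early genes reach to the right, while receptor, heat shock and neuronal marker lists lie about 0.

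The suppressors of cytokine signaling (SOCS), proteins that shut down JAK kinases and are themselves made on STAT activation, held the greatest change of all DEGs. *SOCS3* was at 129.5, 119.5 and 142 TPM at 1 h, at 9.73, 6.31 and 7.01 TPM at 24 h and at 9.44, 8.62 and 6.48 TPM in PBS. Its log2(fold change) was 4.10 ± 0.15 (SE, n = 3, adjusted p = 8.33e-06 by edgeR). The family was added after these values had been seen, and in it *SOCS1* (24.6 ± 1.60 and 6.21 ± 3.04 TPM, SD, n = 3) and *CISH* also rose. The other 5 of its 8 genes tested did not pass. *CISH* was at 10.3, 9.07 and 9.36 TPM at 1 h and 3.30, 2.86 and 3.60 TPM at 24 h (log2(fold change) 1.56 ± 0.14, adjusted p = 0.00114). Likewise added were the C/EBP factors, of which *CEBPD*, an acute-phase factor, was at 19.2, 18.1 and 15.6 TPM at 1 h and 1.95, 2.09 and 0.795 TPM at 24 h (log2(fold change) 3.30 ± 0.31, adjusted p = 0.00114), and *CEBPA* and *CEBPB* rose too. Of 17 JAK, STAT and cytokine receptor genes, also added, 1 rose (*IL10RA*, 2.53 and 1.64 TPM). *STAT3* had a log2(fold change) of 0.30 (adjusted p = 0.0848).

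The 250 bases before the start site of *CISH*, chr3:50611775-50612024 on the minus strand, are printed because they hold the most matches of TTCNNNGAA, the palindrome bound by STAT proteins, among the genes named here. Matches are in capitals.
CISH: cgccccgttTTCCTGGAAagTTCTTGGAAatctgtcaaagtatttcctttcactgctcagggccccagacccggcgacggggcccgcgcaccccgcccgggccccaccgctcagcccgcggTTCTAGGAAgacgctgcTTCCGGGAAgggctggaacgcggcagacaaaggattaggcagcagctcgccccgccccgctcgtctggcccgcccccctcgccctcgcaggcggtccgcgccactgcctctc
The 4 matches begin 241, 230, 129 and 112 bases before the start site. Of the 84 windows, 8 hold this motif (9.52%), as do 7.88% of all windows, and *SOCS3* is not among the 8.

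Inflammatory target genes rose in 4 of 15 cases, and none fell (median log2(fold change) 0.43), with 2 cases left without Chronic 1 h replicate 1. Beside *SOCS3* these were *IRF1*, an interferon regulatory factor, at 6.83, 6.97 and 7.48 TPM at 1 h and 0.942, 1.07 and 2.18 TPM at 24 h, the chemokine *CCL2*, at 62.0, 65.3 and 81.9 TPM and 27.8, 9.54 and 25.3 TPM, and *BCL3*. The log2(fold change) was 2.35 ± 0.28 for *IRF1* (adjusted p = 0.00460) and 1.72 ± 0.31 for *CCL2* (adjusted p = 0.0327). *GFAP*, the filament protein of astrocytes, was at 36.4, 33.5 and 29.0 TPM at 1 h and 18.8, 12.3 and 13.0 TPM at 24 h (log2(fold change) 1.18 ± 0.16, adjusted p = 0.0102). It was the only gene of 8 astrocyte markers that rose, a call lost without Chronic 1 h replicate 1 or 2, and the summed TPM of that list was 299 to 317 at 1 h and 266 to 334 at 24 h. Microglial markers summed to 1.45 to 2.69 TPM at 1 h and 1.55 to 2.81 TPM at 24 h.

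Metallothioneins, small proteins that bind zinc and copper and are made when zinc activates the factor MTF1, were higher at 1 h together with the zinc exporter *SLC30A1*. Of 6 genes tested, 4 rose and none fell (median log2(fold change) 1.64), and 1 did so without Chronic 1 h replicate 2. *SLC30A1* was at 106 ± 4.08 TPM (SD, n = 3) at 1 h and at 31.1, 39.7 and 38.9 TPM at 24 h, a log2(fold change) of 1.54 ± 0.09 (adjusted p = 1.73e-04 by edgeR). *MT1X* was at 34.2, 29.5 and 32.4 TPM at 1 h and at 5.97, 14.8 and 4.80 TPM at 24 h, where replicate 2 was the highest of its group. *MT2A* was at 42.1, 49.0 and 57.2 TPM and at 21.9, 20.9 and 25.6 TPM, with a log2(fold change) of 1.15 ± 0.16 (adjusted p = 0.0117). In the PBS libraries *MT2A* was at 14.1, 12.8 and 15.8 TPM, below both groups. *MT3*, the neuronal member, was at 8.12 ± 2.45 and 7.37 ± 2.55 TPM (SD, n = 3) and did not pass. Metallothionein genes are near copies of each other, so reads may be divided among them.

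The metal response element has the core TGCNCNC. The 250 bases before the start site of *MT2A*, chr16:56608334-56608583 on the plus strand, are printed with its matches on either strand in capitals.
MT2A: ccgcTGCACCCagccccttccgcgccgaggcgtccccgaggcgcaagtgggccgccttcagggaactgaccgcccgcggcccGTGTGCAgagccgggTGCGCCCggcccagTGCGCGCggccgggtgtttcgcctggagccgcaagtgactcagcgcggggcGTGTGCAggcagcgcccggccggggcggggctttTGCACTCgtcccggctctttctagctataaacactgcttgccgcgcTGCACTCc
These bases hold 7 matches. The core is loose, as 63.1% of the 84 windows and 55.2% of all windows hold it at least once.

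In other stress programs few genes passed. None of 15 heat shock genes passed (median log2(fold change) 0.05), and of 15 NRF2 antioxidant genes 1 rose (*SLC3A2*, a subunit of the cystine transporter, 0.52 ± 0.07). *HMOX1*, which breaks down heme, was at 17.7, 28.4 and 25.2 TPM at 1 h and 18.6, 14.4 and 24.5 TPM at 24 h, and at 8.48, 5.71 and 5.86 TPM in PBS, so both groups were above the PBS libraries and overlapped each other. Of 19 ATF4 and unfolded protein response genes, *CHAC1* (0.67 ± 0.12) and *TRIB3* (0.52 ± 0.09) rose, and 3 did in exon reads. Of 28 hypoxia target and glycolysis genes, all 28 had a positive log2(fold change) with a median of 0.36, and 1 passed, the glucose transporter *SLC2A1*, at 89.7, 105 and 80.6 TPM at 1 h, 58.1, 42.7 and 38.5 TPM at 24 h and 284, 201 and 97.3 TPM in PBS. By exon reads 3 of the 28 rose. Summed TPM of the list was 6306 to 7381 at 1 h, 5284 to 6312 at 24 h and 7925 to 10368 in PBS. The share of all genes with a positive change was not worked out, and the median of all genes was -0.01. The calls of *SLC3A2*, *CHAC1*, *TRIB3* and *SLC2A1* were each lost without any 1 of the Chronic 1 h libraries, and with 15 libraries in 1 fit. None of 29 genes of cholesterol and fatty acid synthesis passed (median -0.06).

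Targets of SRF with its actin-sensing cofactors rose in 5 of 18 cases, and none fell (median log2(fold change) 0.34), with 3 cases left without Chronic 1 h replicate 1. *CCN1*, a secreted matrix protein, was at 48.1, 64.3 and 36.2 TPM at 1 h and 10.3 ± 0.894 TPM (SD, n = 3) at 24 h (log2(fold change) 2.22 ± 0.20, adjusted p = 0.00114 by edgeR). *CCN2*, its relative, was at 58.1 ± 21.2 and 15.4 ± 2.35 TPM (SD, n = 3), so its 1 h libraries were widely spread. *FHL2* was at 9.84 ± 0.313 and 3.51 ± 0.0550 TPM. The long non-coding gene *AC108058.1*, also a DEG, lies within *FHL2* on the opposite strand, and counting did not state strand, so its 16, 17 and 11 reads at 1 h and 2, 1 and 3 reads at 24 h cannot be told apart from those of *FHL2*.

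Genes of dopamine signaling itself did not move past the test. None of 7 dopamine and adenosine receptor genes tested passed, and 1 did without Chronic 24 h replicate 3 or in exon reads. *DRD1* was at 1.51, 1.77 and 1.83 TPM at 1 h and 1.45, 0.778 and 0.926 TPM at 24 h (log2(fold change) 0.69 ± 0.30, adjusted p = 0.357). *DRD2* was at 4.12, 3.53 and 4.25 TPM and at 4.03, 3.05 and 4.78 TPM (0.02 ± 0.13, adjusted p = 0.959), and *ADORA2A* at 5.43 ± 1.21 and 5.42 ± 1.19 TPM (SD, n = 3). At such low levels a small change was not detectable. *PPP1R1B*, which encodes DARPP-32, the protein phosphatase inhibitor of medium spiny neurons, was at 15.8, 9.92 and 10.2 TPM at 1 h and 18.8, 17.8 and 12.2 TPM at 24 h (-0.43 ± 0.21, adjusted p = 0.409), with the PBS libraries above both groups at 24.5, 21.7 and 20.3 TPM. Of 19 RGS, GRK and arrestin genes, which end signaling by G protein-coupled receptors, *RGS16* rose (132 ± 11.1 and 74.3 ± 7.06 TPM, SD, n = 3), and none of 24 glutamate and GABA-A receptor subunits passed.

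Few genes of developmental pathways moved. In the Wnt list of 36 genes the receptors *FZD8* and *FZD7* rose, in the TGF-beta and BMP list of 31 *ID3* and *GREM1*, and in the Notch list of 15 the ligands *DLL1* and *JAG1*. With 1 library left out these counts ranged from 0 to 2, 0 to 5 and 1 to 4, and with 15 libraries in 1 fit they were 0, 0 and 1. None of 12 pan-neuronal, 9 interneuron, 8 excitatory, 15 cycling cell, 7 oligodendrocyte, 11 mesenchymal, 4 microglial or 5 pluripotency markers tested passed, and of 11 progenitor markers *SOX1* rose (61.8 ± 3.83 and 45.4 ± 3.09 TPM, SD, n = 3), a call lost without any 1 of the Chronic 1 h libraries. None of 13 mitochondrially encoded genes passed.

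The genes lower at 1 h were few. *CCNO*, which is needed to build multiple cilia, was at 2.33, 4.11 and 4.12 TPM at 1 h and 9.70, 8.57 and 9.74 TPM at 24 h (log2(fold change) -1.27 ± 0.24, adjusted p = 0.0386 by edgeR). *KRT7*, an epithelial keratin, was at 2.34, 0.510 and 1.60 TPM and at 5.25, 6.07 and 4.11 TPM (-1.43 ± 0.28, adjusted p = 0.0488). The third was *AC069281.2* (3.26 ± 0.686 and 8.42 ± 0.983 TPM, SD, n = 3). No lower DEG was left without Chronic 1 h replicate 3. The call of *KRT7* was also lost in exon reads, and those of *KRT7* and *CCNO* in the fit of 15 libraries, with a replicate block, and without Chronic 1 h replicate 1 or 2 or Chronic 24 h replicate 1. Below the minimum fold change, the splicing kinase *CLK1* fell, and it was the only gene of 16 CLK kinases and SR splicing factors that passed, although 5 others rose without Chronic 24 h replicate 3. It was at 74.3, 73.7 and 69.8 TPM at 1 h and 103, 147 and 127 TPM at 24 h, with PBS at 152, 157 and 154 TPM (log2(fold change) -0.59 ± 0.11, adjusted p = 0.0371), and its call was lost without any 1 of the Chronic 1 h libraries.

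Intron reads come mostly from RNA that has not yet been spliced, so they were tested on their own over 22242 genes with introns. With the same adjusted p and fold change, 205 genes were higher (0.922%) and 25 lower (0.112%) at 1 h, in all 1.03% of those tested. Without the fold change 644 were higher (2.90%) and 145 lower (0.652%), in all 3.55%. Of the 86 DEGs whose intron reads could be tested, 60 were also higher in intron reads past the adjusted p. As the total gene reads that chose the DEGs include intron reads, this overlap is partly built in and is no separate support. *SERPINA3*, an acute-phase protease inhibitor, had 214, 224 and 261 intron reads at 1 h and 8, 13 and 12 at 24 h, a log2(fold change) of 4.39 (adjusted p = 1.14e-05 by edgeR). In exon reads it rose by 0.72 (adjusted p = 0.0409), and its TPM at 24 h was above the PBS libraries (26.4, 24.0 and 17.4 against 7.01, 7.97 and 10.6 TPM). *NPTX2* had 186, 222 and 166 intron reads at 1 h and 33, 36 and 32 at 24 h (2.50, adjusted p = 3.53e-04), *TLE3* rose by 1.44, *GPR180* by 1.32 and *VCL* by 1.24. Intron reads fell for *SLC38A2* (-1.05), *BBS5* (-0.85), *NDUFA5* (-0.96), *HINT1* (-1.17) and *KNOP1* (-1.33). For *NR4A3*, whose total reads did not pass, intron reads rose by 0.89 (138, 126 and 105 against 76, 69 and 54 reads, adjusted p = 0.0195).

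The change in exon reads was then tested against the change in intron reads of the same libraries, over 15291 genes. The exon change was the higher for 209 genes (1.37%) and the lower for 714 (4.67%), in all 6.04% of those tested. *EGR2* stood at the upper end, with a difference of 4.94 (adjusted p = 8.74e-06 by edgeR), as its exon reads went from 9, 9 and 9 at 24 h to 306, 309 and 265 at 1 h while its intron reads were 43, 44 and 49 and then 54, 39 and 48. Its gene model spans positions 62811996 to 62919900 of chromosome 10, far upstream of the start site in RefSeq, so intron reads counted to it need not come from its transcript. *IER2* (1.60), *KNOP1* (1.53), *HINT1* (1.09) and *AC010624.5* (2.61) also had the higher exon change. At the other end were *SERPINA3* (-3.68), *PRNP* (-1.43), *CLK1* (-1.35), *TNC* (-1.33) and *PUM2* (-1.01). For *CLK1* the signs were opposite, with exon reads at -0.81 (adjusted p = 0.0115) and intron reads at 0.56 (adjusted p = 0.0514). This count was the most dependent on single libraries, with 105 genes without Chronic 1 h replicate 2 and 2350 without Chronic 24 h replicate 3.

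**Figure D4:**
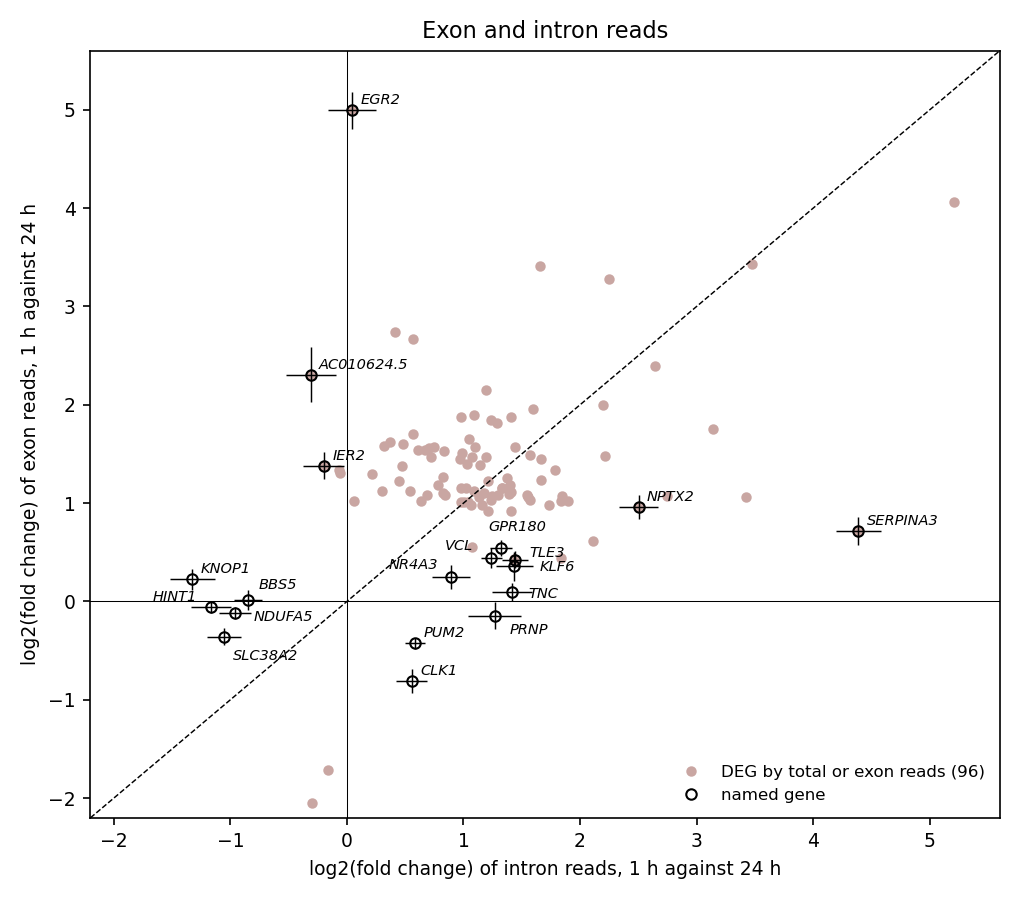
Log2(fold change) of exon reads (y axis) against that of intron reads (x axis), Chronic 1 h against Chronic 24 h, for 96 genes that were DEGs by total or exon reads and had both counts tested (pink), and for named genes (black rings, bars are SE). The dashed line marks equal change. *EGR2* lies far above it at 5.00 and 0.05, and *SERPINA3* far below it at 0.72 and 4.39.

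An interaction term tested whether the change from 24 h to 1 h differed between the 1 mM and 1 µM experiments, both after 5 daily doses. The 1 µM libraries held between 9347183 and 33715972 reads, of which 15.3% to 23.6% were intron reads. Each dose had PBS libraries of its own, so dose and experiment cannot be told apart. Of 25702 genes tested, 13 differed (0.0506%), 8 with the higher change at 1 mM (0.0311%) and 5 with the lower (0.0195%), and the median difference of all genes was -0.11. By exon reads 58 of 17712 differed (0.327%), and by DESeq2's Wald test 554 did. The count was 2, both with the higher change at 1 mM, with a replicate block and also without any 1 of the 1 mM Chronic 1 h libraries, 1 mM Chronic 24 h replicate 1 or 3, 1 µM Chronic 1 h replicate 1, or 1 µM Chronic 24 h replicate 1 or 2. It was 157 without 1 µM Chronic 1 h replicate 2. *ARRDC3*, an arrestin-like protein that acts in receptor turnover, was at 274, 269 and 339 TPM 1 h after 1 mM and 117, 124 and 65.7 TPM after 24 h. At 1 µM it was at 15.1, 18.4 and 23.5 TPM at 1 h and 123, 113 and 129.7 TPM at 24 h, so it moved in opposite directions, with a difference of 4.08 ± 0.31 on the log2 scale (adjusted p = 8.04e-04 by edgeR). The histone gene *H2AC6* was at 74.5 ± 23.8 TPM (SD, n = 3) at 1 h and 18.2, 18.0 and 29.4 TPM at 24 h at 1 mM, and at 6.92, 7.83 and 9.92 TPM and 10.7, 10.4 and 6.26 TPM at 1 µM, where the groups overlapped (difference 3.88 ± 0.34, adjusted p = 0.00210). By exon reads that difference did not pass (1.82, adjusted p = 0.0706).

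*TIPARP*, a target of the aryl hydrocarbon receptor (difference 1.25 ± 0.14, adjusted p = 0.0205), had the higher change at 1 mM. *NR4A3* had the lower. Its change at 1 µM was 1.79 ± 0.16, at 18.5, 18.9 and 20.9 TPM against 5.81, 5.06 and 6.95 TPM, and the difference was -1.48 ± 0.21 (adjusted p = 0.0448). The 24 h level of *NR4A3* was therefore the lower one at 1 µM, while the 1 h levels were 32.6 ± 4.11 TPM (SD, n = 3) at 1 mM and below 21 TPM in each library at 1 µM. For *SOCS3* (difference 2.86 ± 0.48) and *FOS* (1.61 ± 0.25) the adjusted p was 0.0838 and 0.0687 in total gene reads, and 0.00956 for both in exon reads. *EGR1* rose at both doses, by 3.30 and 2.67, and the difference of 0.61 ± 0.26 did not pass (adjusted p = 0.418).

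Acute cultures were younger than chronic ones when RNA was taken, so culture age and regimen cannot be told apart, and intron reads were 12.3% to 15.9% of theirs. The same test against a single 1 mM dose gave no gene in 25444 (edgeR, 1948 at an unadjusted p under 0.05, and 32 genes by DESeq2's Wald test). The median difference was 0.10. Replicate 1 of Acute 24 h stood apart from its group, with *EGR1* at 695.5, 27.8 and 25.8 TPM in the 3 libraries and *ARRDC3* at 895, 77.9 and 119 TPM. Without it, 3 of 26210 genes differed (0.0114%), each with the lower change after chronic dosing, namely *NR4A3* (-2.67 ± 0.25, adjusted p = 0.00189), *EGR2* (-2.11, adjusted p = 0.00915) and *DUSP1* (adjusted p = 0.0273). Replicate 1 was set aside after values such as that of *EGR1* were seen, and *NR4A3* and *EGR2* are immediate early genes too. These 3 calls therefore rest partly on that choice. The value of *EGR2* is in total gene reads, whose intron part need not come from its transcript. The share of that part in the difference was not tested. In the acute cultures *NR4A3* was at 65.5, 50.0 and 48.0 TPM at 1 h and 13.8, 8.26 and 7.86 TPM at 24 h. For the 123 genes chosen as higher after chronic 1 mM, the median log2(fold change) was 1.35 there, 0.75 over the 109 tested at 1 µM, of which 86 were positive, and 0.96 over the 119 tested after the acute dose, or 1.31 over 121 without replicate 1 of Acute 24 h. Since the genes were chosen on the first of these values, the others are given side by side only.

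**Figure D5:**
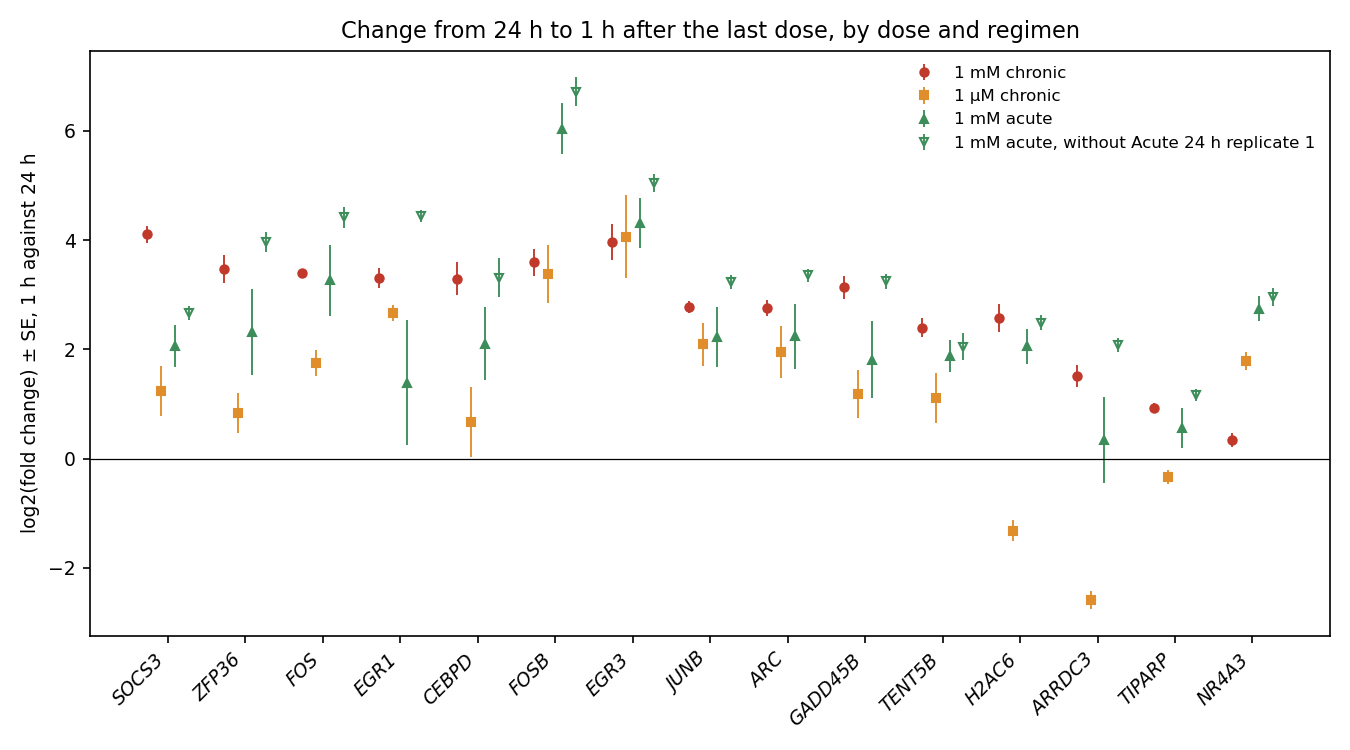
Log2(fold change) in total gene reads from 24 h to 1 h after the last dose (y axis, bars are SE, n = 3 per group) for 15 genes after chronic 1 mM (red), chronic 1 µM (orange) and acute 1 mM dopamine (green, open symbols without replicate 1 of Acute 24 h). *ARRDC3* and *H2AC6* lie above 0 at 1 mM and below 0 at 1 µM, and *NR4A3* has its lowest change, 0.34, after chronic 1 mM.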

How the data were processed

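RNA-seq libraries of hMSN-like cells were compared at 1 h (n = 3) and 24 h (n = 3) after the fifth daily dose of 1 mM dopamine. The authors trimmed the reads and mapped them to the human genome (hg38 per the submitters' processing notes) in CLC Genomics Workbench, using Ensembl gene models, 1 library per table of 60676 genes. Each deposited table holds counts of total gene, exon, intron and unique gene reads, and TPM values that the authors' software made from exon reads and exon length. The strand setting was not stated, and the labels do not say which of 2 sequencing providers made which library.

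Counts were tested as deposited with edgeR 4.0.16 in R 4.3.3 (TMM scaling, filterByExpr with a minimum count of 10 and a minimum total of 15, quasi-likelihood F test, Benjamini-Hochberg adjustment over all genes tested), with the 6 libraries of both groups. A DEG had an adjusted p under 0.05, a log2 fold change of 1 or more in either direction, and 1 TPM or more as the mean of the higher group. The SE of a fold change was taken as its size over the root of F. Exon and intron changes were compared in a fit over both counts with the library as a block, and dose and regimen with an interaction term. The steps were tested on simulated data. DESeq2 1.42.0, other scalings, filters and thresholds, all 15 libraries of the 1 mM experiment in 1 fit, a replicate block and leaving out each library served as alternatives. Promoter letters are from RefSeq.

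Named genes were the 15 DEGs with the largest change in each direction whose TPM did not overlap, members of the lists that passed, receptor and immediate early genes, and the 5 genes with the smallest p in each direction of the intron and interaction fits. List members that did not pass, and markers, were named after their values were seen. The members and lists were chosen with earlier results of these data known. Some genes are not reported here.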

Additional observations from a re-analysis of the deposited data

Results flagged for a closer look

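The change from 24 h to 1 h after the last chronic dose differed between 1 mM and 1 µM by an interaction term (edgeR's quasi-likelihood test, 3 libraries per group) for 8 of the genes named here, and each is listed for that reason. The difference, 1 mM minus 1 µM on the log2 scale, was 4.08 for *ARRDC3*, 3.88 for *H2AC6*, 1.25 for *TIPARP* and 0.843 for the histone demethylase *KDM3A* (adjusted p = 0.0249). It was -2.67 for *AC010615.1* (adjusted p = 0.0238), -2.49 for *GCNA* (adjusted p = 0.0238), -1.48 for *NR4A3* and -0.868 for the cleavage factor gene *PCF11* (adjusted p = 0.0205). Of all genes tested, 2 differed with a replicate block or without any 1 of 8 of the 12 libraries, and in exon reads *H2AC6* did not pass (adjusted p = 0.0706). The 1 µM libraries were sequenced to other depths than the 1 mM libraries and had mitochondrial ribosomal RNA at 1.10% to 1.92% of reads, and the part of either in these differences was not tested. Dose and experiment cannot be told apart in these values.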

How the results depend on the processing

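The count of 126 DEGs was 38 with all 15 libraries in 1 fit, 345 by adjusted p alone, 243 with a log2 fold change minimum of 0.58, and 64 to 199 with 1 library left out. Intron read DEGs (230) ranged from 81 to 506 and genes with unequal exon and intron change (923) from 105 to 2350 with 1 library left out. The dose difference (13 genes) was 58 in exon reads, 554 by DESeq2, 37 with at least 10 counts in every library, and 2 to 157 with 1 library left out, the last without 1 µM Chronic 1 h replicate 2. The regimen difference (0 genes) was 1 in exon reads, 32 by DESeq2, 1 with at least 10 counts in every library, and 0 to 3 with 1 library left out. The causes were not tested.

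Libraries that share a replicate number did not deviate together (correlations of 0.0187, -0.0369 and 0.0382), so the numbers were not taken as pairs. A replicate block gave 101 DEGs, 212 intron read DEGs, 2 genes for dose and 1 for regimen, and 20 of the 89 named genes that had passed lost their call. Of the 89 named genes past the adjusted p, 18 kept it under every alternative run, *SOCS3*, *FOS*, *FOSB*, *EGR3*, *JUNB*, *ARC*, *ZFP36*, *CEBPD* and *TENT5B* among them, and 40 without each library in turn. In the fit of 15 libraries, which holds the replicate 1 of Acute 24 h that stood apart from its group, 66 lost it. No named gene reversed in any alternative run.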
